A study of Homo sapiens with 8 samples.

Results

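The 37 genes described here make the machinery that copies DNA: factors that license origins, the MCM helicase and its activators, polymerases and primase, the clamp with its loader and the enzymes that join Okazaki fragments, the enzymes that supply nucleotides, and 2 proteins that protect the fork. They were chosen by name from the 60617 genes of the deposited count table, each symbol matched 1 Ensembl identifier, and all 37 were among the 17693 genes that passed the filter on low counts. Poly(A)-selected RNA was sequenced from MCF-10A, an established, non-tumorigenic line of human breast epithelium, in 8 libraries. The groups were untreated Empty cells, Empty cells given 1 µM JG-98 for 12 h, untreated NeuT cells and NeuT cells given the same dose for the same time, with 2 libraries each. JG-98 inhibits Hsp70, the chaperone of the stress response, and the series concerns Hsp70, its partner Bag3 and protein damage in the cytoplasm. NeuT is a name commonly used for an activated form of rat Erbb2 (HER2), but the labels do not spell out what these cells carry, which promoter drives it or whether a line is 1 clone. All groups shared a medium with horse serum, epidermal growth factor, hydrocortisone, insulin and cholera toxin, and controls were left untreated with no vehicle named. No label says that replicates came from separate cultures, so p-values measure the spread between these libraries, which may be technical.

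As background, replication begins at origins that are licensed in the G1 phase, when the origin recognition complex, CDC6 and CDT1 load the ring of MCM proteins onto DNA. At the start of S phase CDC45 and GINS bind the ring and make it an active helicase, polymerase alpha with primase lays down primers, and polymerases epsilon and delta extend them while held by the PCNA clamp. Most of these genes are known targets of E2F transcription factors, which the RB1 protein holds back until cells commit to S phase, and their mRNAs rise and fall with the cell cycle in dividing cells.

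Because E2F proteins bind close to the start of many replication genes, the promoters are shown first. RefSeq promoters on GRCh38.p14, running from 250 bases before to 50 bases after the start, were matched by symbol for 33 of the 37 genes, and MCM4, MCM5, GINS4 and RPA2 had no entry. An E2F-type match was any of TTTCCCGC, TTTGGCGC, TTTGCCGC or TTTCGCGC on either strand, and matches may overlap each other. It was found in 18 of 33 promoters (54.5%), against 3.31% of all 35116 promoters and 5.18% of the 11651 promoters of genes tested here, counted once per gene. The CCAAT box, searched as CCAAT on both strands, was in 19 of 33 (57.6%), against 34.6% of all promoters and 36.2% of those of tested genes. A match is a description of the letters and not a binding site. The stretches below are the 120 bases before the start of 6 genes whose values are given later, read 5′ to 3′ on the strand of the gene, with every match in capitals. They are MCM6 at chr2:135876444-135876563 (minus strand), CDT1 at chr16:88803669-88803788 (plus), POLA2 at chr11:65261842-65261961 (plus), PCNA at chr20:5126623-5126742 (minus), TYMS at chr18:657533-657652 (plus) and RRM1 at chr11:4094565-4094684 (plus).
MCM6: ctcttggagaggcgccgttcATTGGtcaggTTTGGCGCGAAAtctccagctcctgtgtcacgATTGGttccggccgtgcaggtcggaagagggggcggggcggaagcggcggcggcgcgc
CDT1: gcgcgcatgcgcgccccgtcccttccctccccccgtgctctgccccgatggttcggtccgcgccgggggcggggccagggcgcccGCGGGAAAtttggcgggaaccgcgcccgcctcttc
POLA2: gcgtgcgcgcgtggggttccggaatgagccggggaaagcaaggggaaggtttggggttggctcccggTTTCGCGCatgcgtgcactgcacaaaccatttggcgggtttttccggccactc
PCNA: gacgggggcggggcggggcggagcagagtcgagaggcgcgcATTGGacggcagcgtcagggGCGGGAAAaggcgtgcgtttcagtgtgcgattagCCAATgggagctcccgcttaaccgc
TYMS: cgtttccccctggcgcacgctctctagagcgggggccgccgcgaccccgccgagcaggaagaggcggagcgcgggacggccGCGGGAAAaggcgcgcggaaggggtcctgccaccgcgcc
RRM1: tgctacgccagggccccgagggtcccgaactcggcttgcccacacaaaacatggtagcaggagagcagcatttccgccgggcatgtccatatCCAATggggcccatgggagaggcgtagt
MCM6 has 2 overlapping E2F-type matches between a pair of CCAAT boxes, PCNA has 1 E2F-type match between its own pair, and CDT1, POLA2 and TYMS have 1 E2F-type match and no CCAAT box in this window. RRM1 is shown as a gene with a CCAAT box and without an E2F-type match. The 18 genes with an E2F-type match had a median log2 difference of -0.75 between untreated NeuT and Empty cells, and the 15 without one had -0.82, so the genes with a match did not have the larger median difference.

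Total counts were 55050996 to 56861971 in 7 libraries and 37341458 in the first treated Empty library. Member counts ran from 197 for POLA2 to 32748 for RRM2, so no replication gene was near the limit of detection. All 10 markers of MCF-10A basal epithelium reached 50 counts in at least 1 library, although VIM had only 13 to 230 counts. Leukocyte markers had at most 4 counts, PGR at most 5 and LUM at most 3, but PECAM1 had 398 to 879, COL1A1 218 to 319 and ESR1 528 to 875 counts. The summed CPM of the luminal markers was 65.1 to 65.8 in Empty and 57.1 to 61.1 in NeuT libraries, and that of the endothelial markers 10.6 to 15.1 and 8.29 to 9.94. The summed level of the basal markers was 20447 to 21357 CPM (reads per library total, scaled by TMM) in Empty libraries and 25103 to 26372 CPM in NeuT libraries, so it moved with the line in the other direction from the replication genes. Single basal markers did not all follow that sum: without the drug 7 of 10 were called higher in NeuT cells and 2 lower, with log2 differences from -1.07 for EPCAM to 2.81 for VIM. The part of these marker differences in the results below was not tested.

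On a scale that also divides by gene length (RPKM), PCNA, the sliding clamp, had the highest level of the 37 genes in all 4 groups and POLA2, the accessory subunit of polymerase alpha, the lowest. PCNA was at 202.4 ± 4.7 RPKM (SD, n = 2) without and 170.9 ± 4.7 with the drug in Empty cells, and at 139.6 ± 3.7 without and 111.9 ± 20 with it in NeuT cells. POLA2 was at 1.66 ± 0.13, 1.45 ± 0.05, 1.13 ± 0.05 and 0.693 ± 0.054 RPKM in the same order. The median over the 37 genes was 16.9, 15.2, 10.7 and 9.40 RPKM, so the order of the groups was the same at the top, the middle and the bottom of the range.

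The 6 subunits of the MCM ring, which works with 1 copy of each, were not at equal RPKM. This scale divides by the length of all annotated exons merged, from 3650 bases for MCM3 to 7268 for MCM5. That need not be the length of the expressed mRNA, and the order of the subunits rests on it. Before division by length, MCM5 was above MCM2 in untreated Empty cells (158.9 against 137.5 CPM). In untreated Empty cells MCM3 and MCM7 stood highest, at 65.8 ± 0.5 and 65.3 ± 1.8 RPKM, and did not differ beyond their spread. MCM4 followed at 55.7 ± 2.1, MCM6 at 42.6 ± 0.5, MCM2 at 29.2 ± 0.9 and MCM5 at 21.9 ± 0.2 RPKM, each apart from its neighbours by more than the SD. In untreated NeuT cells the levels were 39.1 ± 1.2 for MCM3, 33.4 ± 1.7 for MCM7, 32.5 ± 0.2 for MCM4, 25.4 ± 0.04 for MCM6, 14.7 ± 0.2 for MCM2 and 13.7 ± 0.8 RPKM for MCM5. There MCM7 could not be separated from MCM4 by its spread, while MCM3 was above both. The highest subunit was 3.01 times the lowest in Empty controls, 3.14 times in Empty cells under JG-98, 2.86 times in NeuT controls and 3.05 times in NeuT cells under JG-98, so the range within the ring stayed much the same while its level differed.

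**Figure D1:**
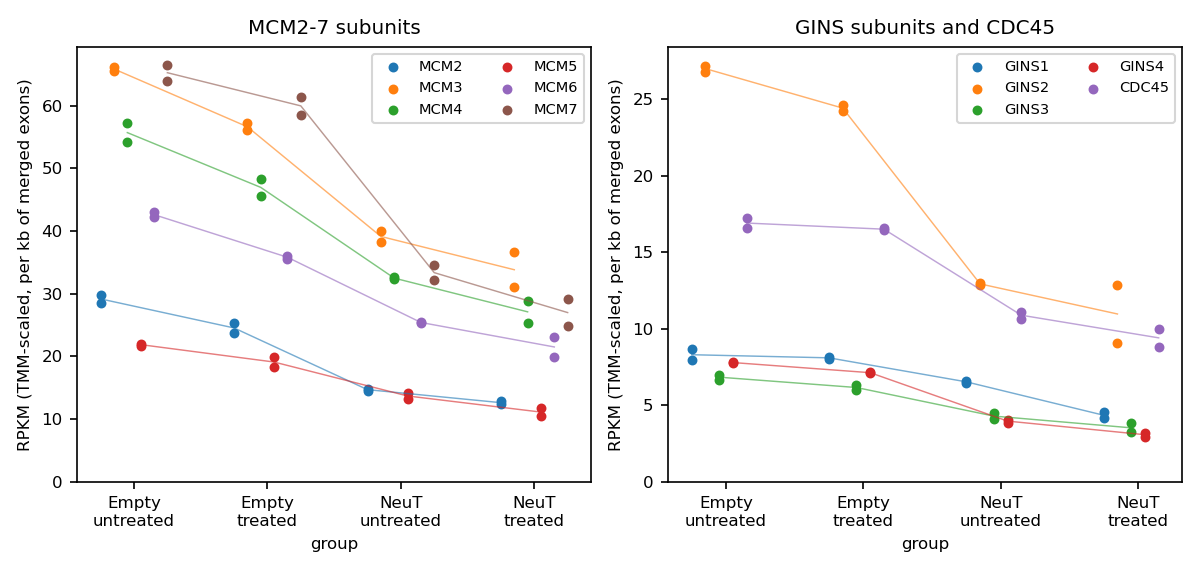
Level in each library (RPKM after TMM scaling) of the 6 MCM subunits (left) and of GINS1 to GINS4 with CDC45 (right), by group, with 1 point per library and lines through the group means. MCM5 has the lowest mean of the ring in every group, at 21.9 RPKM in untreated Empty and 13.7 RPKM in untreated NeuT cells, and GINS2 the highest mean of the right panel.

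The first comparison asks how the lines differ without the drug. Without the drug all 37 replication genes had a lower level in NeuT cells than in Empty cells, where 51.6% of all tested genes did, and all 37 passed the test (edgeR quasi-likelihood, Benjamini-Hochberg adjusted p under 0.05 over all genes tested), where 20.8% of all tested genes were called lower and 42.0% in either direction. The median log2 difference was -0.75, with a range from -1.30 for TYMS to -0.29 for PRIM2, against a median of -0.02 over all genes. With total counts in place of TMM scaling the median of the 37 was -0.82, and over all genes the share of calls that were higher in NeuT went from 50.5% to 40.7%. For all 37 both NeuT libraries lay below both Empty libraries, which held for 37.1% of all tested genes. In 7 of the 37 the call came with a log2 difference of -1 or less, against 4.15% of all genes. In bulk RNA, fewer cells in S phase and less of these mRNAs per cell cannot be told apart.

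**Figure D2:**
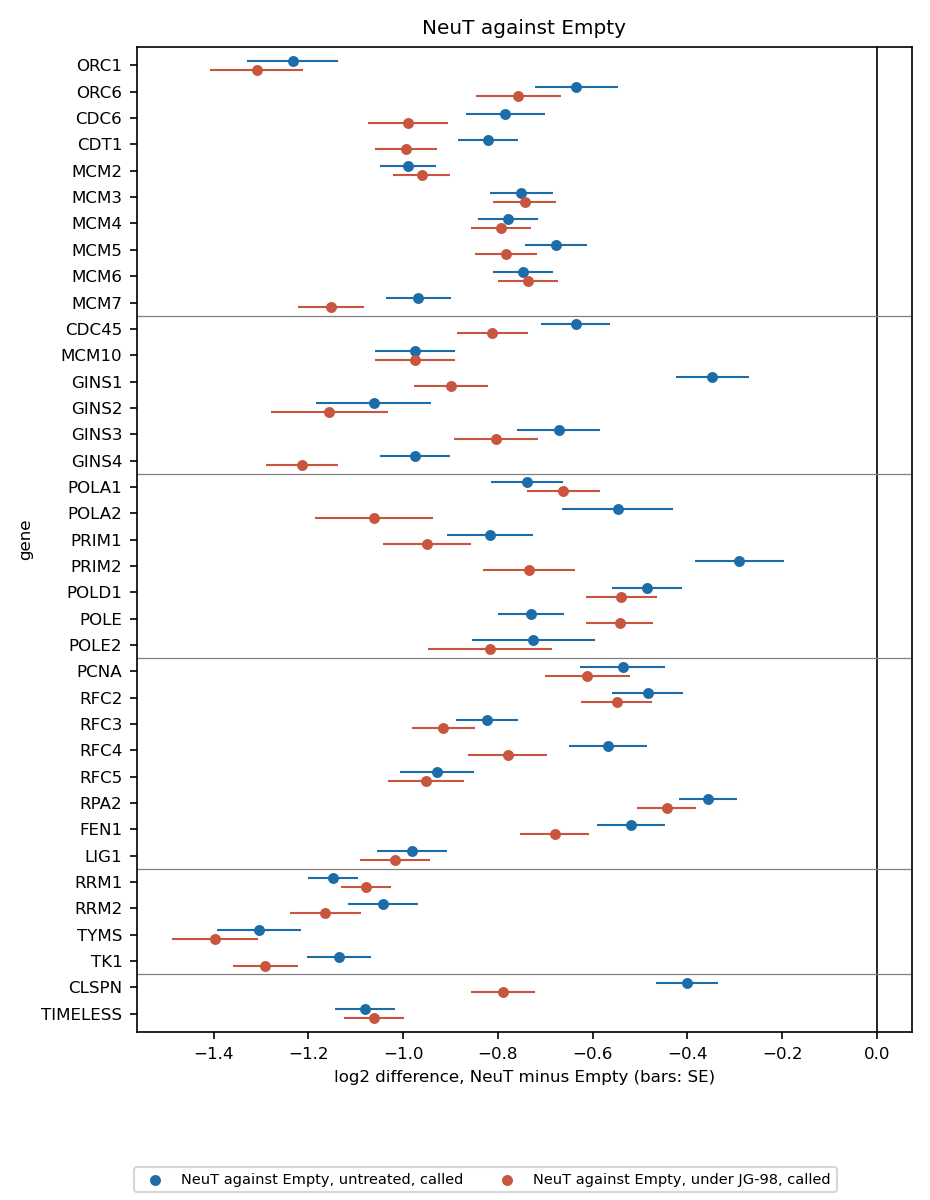
Log2 difference between NeuT and Empty cells for each of the 37 genes without the drug (blue) and under JG-98 (red), with bars for the standard error and lines between roles. Every point is below 0 and called, and TYMS has the lowest values, -1.30 and -1.40.

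Among the 10 licensing and MCM genes the median log2 difference was -0.78. ORC1, the largest subunit of the origin recognition complex, had 62.5 and 58.2 CPM in the Empty controls and 46.2 and 48.8 in Empty cells under JG-98, then 25.0 and 26.4 in the NeuT controls and 21.7 and 16.7 CPM in NeuT cells under JG-98. The 4 groups did not overlap, with treated NeuT lowest. Between the controls of the lines ORC1 differed by -1.23 on the log2 scale (SE 0.096, edgeR adjusted p = 4.3e-08), the most of its group. ORC6, the smallest subunit of the same complex, had the smallest difference. It had in Empty libraries 59.2 and 59.1 CPM without the drug and 50.3 and 52.4 with it, and in NeuT libraries 35.9 and 40.3 without and 33.7 and 27.1 CPM with it. Its log2 difference between untreated lines was -0.63 (SE 0.088, adjusted p = 2.09e-05), again with no overlap of the lines.

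CDC6 and CDT1, which bring the MCM ring to the origin, differed by -0.78 and -0.82 (log2) between the untreated lines. CDT1, whose promoter is shown above, had 130.4 and 123.4 CPM without and 108.5 and 114.6 CPM with JG-98 in Empty cells, and 70.1 and 73.5 without and 58.7 and 53.3 CPM with it in NeuT cells, so its 4 groups did not overlap either. The MCM subunits moved together: their log2 differences ran only from -0.99 for MCM2 to -0.68 for MCM5, with MCM7 at -0.97, MCM4 at -0.78 and MCM3 and MCM6 both at -0.75.

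Helicase activation genes were more uneven, with a median of -0.82 over 6 genes. GINS2 had 87.6 and 86.3 CPM in the Empty controls and 78.0 and 79.3 in Empty cells under JG-98, then 41.4 and 41.9 in the NeuT controls and 41.4 and 29.2 CPM in NeuT cells under JG-98. Its first treated NeuT library thus matched the untreated ones and only the other was lower. GINS1 had in Empty libraries 35.8 and 32.7 CPM without the drug and 33.1 and 33.8 with it, and in NeuT libraries 27.2 and 26.8 without and 18.7 and 17.2 CPM with it, which set the treated NeuT libraries apart from all others. Between untreated lines the log2 difference was -1.06 for GINS2 (SE 0.12, adjusted p = 5.06e-05) and -0.35 for GINS1 (SE 0.076, adjusted p = 0.00143), although both belong to the same complex of 4 subunits. The other 2 subunits, GINS3 and GINS4, were at -0.67 and -0.98. CDC45, the partner of GINS in the helicase, was at -0.64, and MCM10, which helps to activate it, at -0.97.

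The 7 polymerase and primase genes had a median log2 difference of -0.72. PRIM1, the catalytic subunit of primase, had 18.6 and 19.3 CPM without and 18.4 and 18.2 CPM with JG-98 in Empty cells, and 10.9 and 10.6 without and 9.94 and 9.01 CPM with it in NeuT cells. Its lines were far apart and its log2 difference was -0.82 (SE 0.091, adjusted p = 1.45e-06). PRIM2, the regulatory subunit that binds PRIM1, had 21.8 and 20.3 CPM in the Empty controls and 23.4 and 20.6 in Empty cells under JG-98, then 16.1 and 18.4 in the NeuT controls and 13.4 and 13.0 CPM in NeuT cells under JG-98. The untreated lines came close to each other and the log2 difference was -0.29 (SE 0.094, adjusted p = 0.0199), the smallest of the 37. This call was lost without the first untreated Empty library (adjusted p = 0.157) or the first untreated NeuT library (adjusted p = 0.257). POLA1 and POLA2, the catalytic and accessory subunits of polymerase alpha, were at -0.74 and -0.55. POLE and POLE2 of polymerase epsilon were at -0.73 and -0.72, and POLD1, the catalytic subunit of polymerase delta, at -0.48.

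The clamp, its loader, RPA2 and the enzymes that finish Okazaki fragments had the median nearest to 0 of the 6 groups, -0.55 over 8 genes. LIG1, the ligase that seals nicks between fragments, had in Empty libraries 87.1 and 83.2 CPM without the drug and 69.6 and 74.7 with it, and in NeuT libraries 41.6 and 44.7 without and 38.1 and 33.2 CPM with it. RPA2, part of the protein that coats single-stranded DNA, had 70.9 and 70.1 CPM without and 67.8 and 66.3 CPM with JG-98 in Empty cells, and 54.8 and 55.4 without and 51.1 and 47.5 CPM with it in NeuT cells. All 4 groups stood apart for both genes, but the steps of RPA2 were much smaller. The log2 difference between untreated lines was -0.98 for LIG1 (SE 0.073, adjusted p = 1.11e-08) and -0.36 for RPA2 (SE 0.061, adjusted p = 0.000153). PCNA was at -0.54 and FEN1, the flap nuclease, at -0.52. The loader subunits RFC2, RFC3, RFC4 and RFC5 were at -0.48, -0.82, -0.57 and -0.93.

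Nucleotide supply genes differed most, with a median of -1.14, and all 4 were at -1 or below. TYMS, which makes thymidylate, had 37.1 and 33.6 CPM in the Empty controls and 33.4 and 31.3 in Empty cells under JG-98, then 13.6 and 15.1 in the NeuT controls and 12.9 and 11.6 CPM in NeuT cells under JG-98. RRM2, the regulated small subunit of ribonucleotide reductase, had in Empty libraries 576.9 and 569.5 CPM without the drug and 484.2 and 493.4 with it, and in NeuT libraries 277.2 and 279.4 without and 241.0 and 195.1 CPM with it. For both genes every NeuT library was below every Empty library by a wide margin. The log2 difference between untreated lines was -1.30 for TYMS (SE 0.089, adjusted p = 3.44e-09) and -1.04 for RRM2 (SE 0.074, adjusted p = 2.3e-08). RRM1, the large subunit of the same reductase, was at -1.15 with the smallest adjusted p of the 37 (2.88e-11), and TK1, which salvages thymidine, at -1.13.

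TIMELESS and CLSPN, which hold the helicase and polymerases together and pass on checkpoint signals, did not move alike. TIMELESS had 78.5 and 81.5 CPM without and 73.8 and 75.4 CPM with JG-98 in Empty cells, and 37.2 and 38.4 without and 34.7 and 36.8 CPM with it in NeuT cells. CLSPN had 54.6 and 58.2 CPM in the Empty controls and 49.9 and 53.2 in Empty cells under JG-98, then 42.3 and 43.2 in the NeuT controls and 30.2 and 29.6 CPM in NeuT cells under JG-98. TIMELESS therefore changed level chiefly between the lines, and CLSPN both between the lines and with the drug in NeuT cells. Their log2 differences between untreated lines were -1.08 (SE 0.063, adjusted p = 4.96e-10) and -0.40 (SE 0.066, adjusted p = 9.88e-05).

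**Figure D3:**
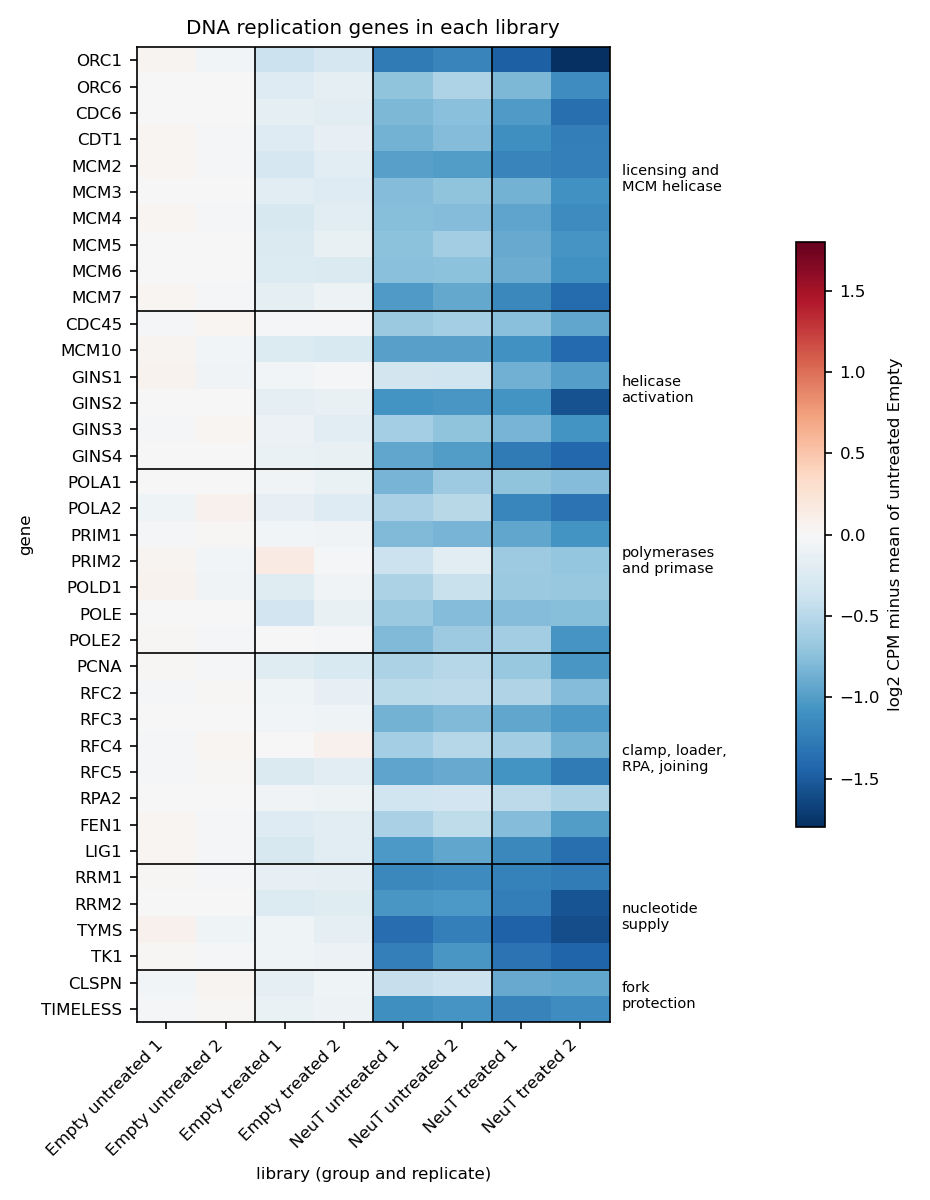
Log2 deviation of each of the 37 genes from its mean in untreated Empty cells, by library, with the genes ordered by role. The untreated NeuT columns have medians of -0.79 and -0.76, and the second treated NeuT column, at -1.09, is the lowest of the 8 libraries.

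The same comparison between drug-treated cells rests on 4 other libraries. Under JG-98 all 37 genes were again lower in NeuT than in Empty cells and all 37 were called, against 20.0% of all tested genes called lower and 41.7% in either direction, with 50.1% below 0. Both treated NeuT libraries were below both treated Empty libraries for all 37, against 33.6% of all genes. The median log2 difference was -0.90, ranging from -1.40 for TYMS to -0.44 for RPA2, and 11 genes had a call with -1 or less, against 4.15% of all genes. With total counts the median was -0.97, and the share of all calls that were higher in NeuT went from 52.0% to 41.0%.

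By role, the median log2 difference under the drug was -1.23 for nucleotide supply, -0.94 for helicase activation, -0.92 for the 2 fork genes, -0.88 for licensing and MCM, and -0.73 both for the polymerases with primase and for the clamp group. GINS4, MCM7, LIG1 and POLA2 joined the genes at -1 or below, with -1.21, -1.15, -1.02 and -1.06. Of the 37 genes, 29 had a lower value under the drug than without it and 8 a higher one. Across the 37 genes the difference without the drug and the difference with it had a Pearson correlation of 0.808, as a description over genes that are not independent of each other and that share their libraries.

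The effect of JG-98 in Empty cells was small. Of the 37 genes 35 had a log2 change below 0, where 50.9% of all genes did, but none passed the edgeR test, where 0.339% of all genes were called. The median log2 change was -0.15, from -0.34 for ORC1 to 0.06 for PRIM2, and 17 genes had an unadjusted p under 0.05, against 9.83% of all genes. For 32 genes both treated libraries were below both untreated ones, against 22.2% of all genes. The smallest adjusted p was 0.0998, for MCM2, at a log2 change of -0.25. The count moved with the processing, and so did the count over all genes, which was 60 in the fit as described. Of the 37, limma-voom called 0 (44 over all genes), DESeq2 3 (MCM2, MCM4 and MCM6, of 151), the fit to the 4 Empty libraries 8 (of 205) and the fit with no filter on low counts 10 (of 282). Leaving out the first treated NeuT library, which enters through the shared estimate of the spread, gave 13 (of 417), and leaving out the second gave 12 (of 404).

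Licensing and MCM genes had the lowest median in Empty cells, -0.21, with MCM4 and MCM6 also at -0.25, MCM3 at -0.22 and MCM7 at -0.12. The median was -0.16 for the clamp group, -0.15 for nucleotide supply, -0.14 for helicase activation, -0.11 for the fork genes and -0.09 for the polymerases and primase. No gene of these groups passed the edgeR test, so these are values and not calls.

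In NeuT cells 13 of the 37 genes were lower with JG-98 past the threshold and none was higher, where 1.01% of all tested genes were called lower, 2.01% higher and 3.01% in either direction. All 37 had a log2 change below 0, against 49.9% of all genes, and 34 had both treated libraries below both untreated ones, against 22.9%. The median change was -0.25, from -0.71 for POLA2 to -0.02 for POLA1, and none of the 37 had a call at -1 or lower, against 0.0509% of all genes. The 13 genes that fell were ORC1, CDC6, CDT1, MCM4, MCM5 and MCM7 among licensing and MCM genes, GINS1 and GINS4 among activators, POLA2 and PRIM2 among polymerase and primase genes, FEN1, RRM2 and CLSPN.

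The second treated NeuT library was the lowest of all 8 for 34 of the 37 genes, and the share over all tested genes was not computed. Against untreated Empty cells the median log2 deviation of the 37 was -0.93 in the first treated NeuT library and -1.09 in the second. Over all genes it was 0.0037 and -0.0014. Relative to the untreated NeuT cells, the median log2 deviation over the 37 genes was -0.17 in the first treated library and -0.36 in the second, while in Empty cells the treated libraries were at -0.16 and -0.15. Counts of calls among the 37 moved with the count over all genes, which was 533 with all libraries. Without the first treated NeuT library 28 of the 37 were called in NeuT cells (2133 over all genes), with a median of -0.36, and without the second 7 were (367 over all genes), with a median of -0.18. Leaving out the first untreated NeuT library left 5 of the 37 (132 over all genes) and leaving out the second left 2 (143 over all genes). With only the 4 NeuT libraries in the fit, 4 of the 37 were called (CDT1, GINS1, POLA2 and CLSPN, of 185 over all genes), and with no filter on low counts 23 were (1000 over all genes).

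**Figure D4:**
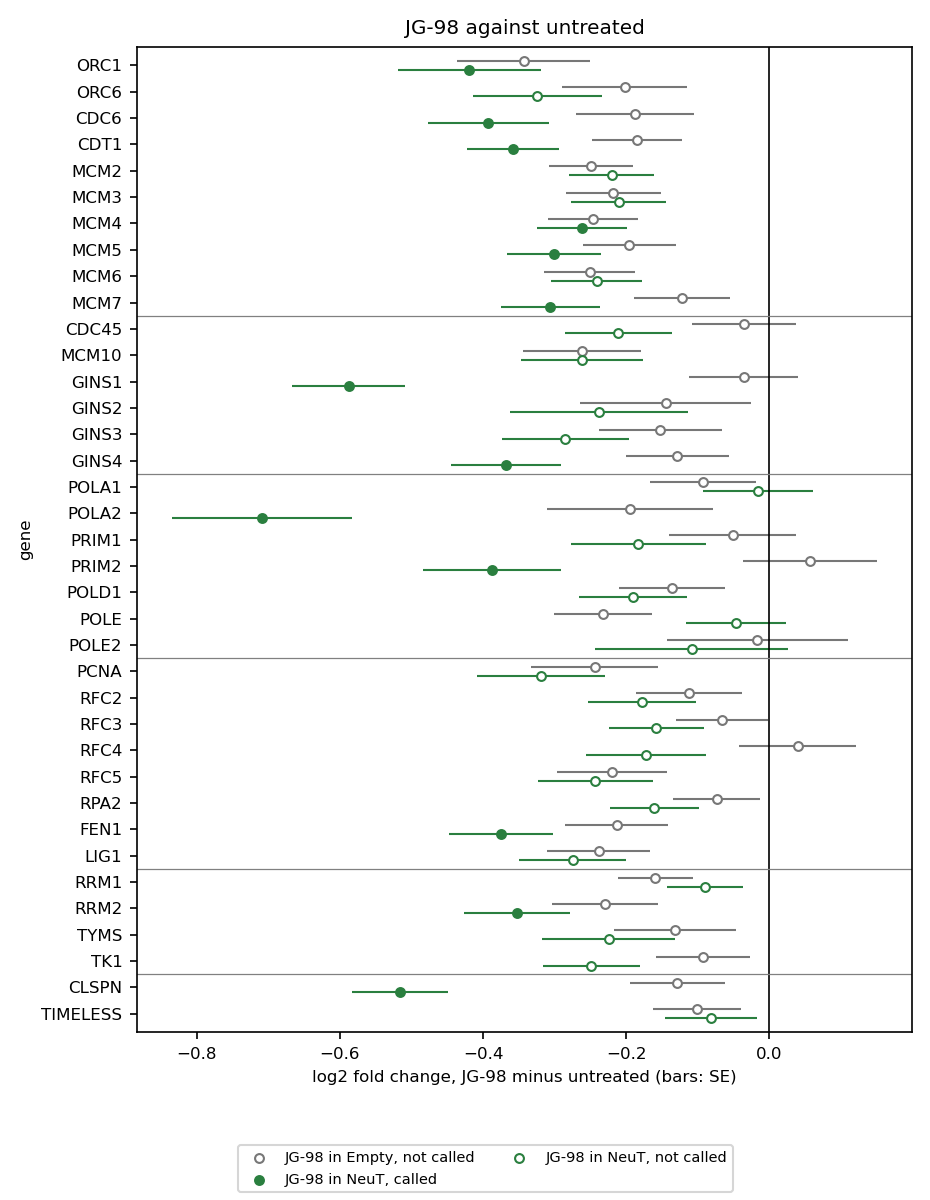
Log2 change with JG-98 in Empty cells (grey) and in NeuT cells (green) for each of the 37 genes, with bars for the standard error and filled points for called changes. In Empty cells the values lie between -0.34 and 0.06 with no call, and in NeuT cells between -0.71 and -0.02 with 13 calls.

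CLSPN and GINS1 had the smallest adjusted p in NeuT cells. CLSPN fell by 0.52 on the log2 scale (SE 0.068, adjusted p = 0.000318) and GINS1 by 0.59 (SE 0.079, adjusted p = 0.000404), and for both the library values above show the treated NeuT pair below all others. Over the 17 alternative settings the adjusted p of CLSPN was at most 0.0140 and that of GINS1 at most 0.0136, so both calls were made in each.

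POLA2 fell by 0.71 (SE 0.13, adjusted p = 0.00395). It had in Empty libraries 8.72 and 9.71 CPM without the drug and 8.27 and 7.86 with it, and in NeuT libraries 6.10 and 6.51 without and 4.07 and 3.65 CPM with it. The 4 groups did not overlap, although the gene had the lowest counts of the 37. Of its exonic bases 39.4% lie in exons of other annotated genes (36.1% on the same strand), so its counts may lack shared reads or include reads of those genes. CDT1 fell by 0.36 (SE 0.065, adjusted p = 0.00474). Both calls were made in 16 of the 17 alternative fits and lost without the second untreated NeuT library, at an adjusted p of 0.0752 for POLA2 and 0.116 for CDT1.

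FEN1 had 102.1 and 97.4 CPM without and 84.7 and 87.3 CPM with JG-98 in Empty cells, and 66.6 and 72.7 without and 57.8 and 49.6 CPM with it in NeuT cells. GINS4 had 42.2 and 42.6 CPM in the Empty controls and 39.1 and 38.5 in Empty cells under JG-98, then 22.1 and 21.0 in the NeuT controls and 17.5 and 16.0 CPM in NeuT cells under JG-98. MCM5 had in Empty libraries 160.2 and 157.7 CPM without the drug and 133.2 and 144.3 with it, and in NeuT libraries 95.5 and 103.3 without and 85.0 and 76.4 CPM with it. In all 3 genes the order of the groups was the same, with no overlap between any 2 of them. These genes were picked by their adjusted p in NeuT cells, which favours separation there, and 22.9% of all genes had both treated NeuT libraries below both untreated ones. In NeuT cells FEN1 fell by 0.37 (SE 0.073, adjusted p = 0.00882), GINS4 by 0.37 (SE 0.077, adjusted p = 0.0137) and MCM5 by 0.30 (SE 0.066, adjusted p = 0.0187) on the log2 scale. RRM2 fell by 0.35 (SE 0.074, adjusted p = 0.0181). Of the 17 alternative fits, 15 called FEN1, 14 RRM2, 13 GINS4 and 13 MCM5. All 4 genes lost the call without the second untreated NeuT library and in the fit to 4 libraries, and RRM2, GINS4 and MCM5 also without the first untreated NeuT library. Without the second treated NeuT library GINS4 and MCM5 lost it too.

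The other 5 calls had adjusted p-values above those given so far. ORC1 fell by 0.42 (adjusted p = 0.0313), CDC6 by 0.39 (adjusted p = 0.0207) and PRIM2 by 0.39 (adjusted p = 0.0367), while MCM7 fell by 0.31 (adjusted p = 0.0218) and MCM4 by 0.26 (adjusted p = 0.0303). Of the 17 alternative fits, 14 called CDC6, 13 MCM7, 11 MCM4, 10 PRIM2 and 9 ORC1, and all 5 calls were lost without either untreated NeuT library and in the fit to 4 libraries. Without the second treated NeuT library MCM7, MCM4, PRIM2 and ORC1 lost the call too. ORC1, MCM4 and PRIM2 lost it without either untreated Empty library, ORC1 without either treated Empty library, and PRIM2 with limma-voom. By role the median change in NeuT cells was -0.30 for licensing and MCM genes (6 of 10 called) and for the 2 fork genes (1 called), -0.27 for helicase activation (2 of 6), -0.24 for nucleotide supply (1 of 4), -0.21 for the clamp group (1 of 8) and -0.18 for the polymerases and primase (2 of 7). PCNA, at -0.32, was not called although its change was larger than that of MCM4, and its 2 treated libraries differed widely, as the SD above shows. RRM1 and TIMELESS, among the genes with the largest difference between lines, were at -0.09 and -0.08 with no call.

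Complexes differed in how evenly their subunits changed in NeuT cells. The 6 MCM subunits ran from -0.31 for MCM7 to -0.21 for MCM3, and the 4 RFC subunits from -0.24 to -0.16, both ranges narrower than that of GINS. GINS ran from -0.59 for GINS1 to -0.24 for GINS2. Polymerase alpha-primase had the widest range, from -0.71 for POLA2 through -0.39 for PRIM2 and -0.18 for PRIM1 to -0.02 for POLA1. These ranges are descriptions, and no test compared one complex with another.

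Whether the drug acted differently in the lines was tested by the interaction of line and drug, in which 0.00565% of all genes (1 gene) were called. None of the 37 replication genes passed, and 5 had an unadjusted p under 0.05, against 7.79% of all genes. GINS1 was nearest, with a log2 change lower by -0.55 in NeuT than in Empty cells (SE 0.11, adjusted p = 0.154), then CLSPN at -0.39 (SE 0.094, adjusted p = 0.349). POLA2 was at -0.51 (adjusted p = 0.509), PRIM2 at -0.44 (adjusted p = 0.49) and GINS4 at -0.24 (adjusted p = 0.607). DESeq2 called GINS1 alone of the 37 (adjusted p = 0.0154) and 26 genes in all, and over all alternatives the adjusted p of GINS1 ran from 0.00138 to 0.944. The median interaction was -0.09, and 29 of the 37 were below 0, against 50.0% of all genes. Without the first treated NeuT library 7 of the 37 were called, among 777 genes in all, with a median of -0.22, and without the second none of the 37 was, with a median of -0.033. With all 8 libraries, the calls in NeuT cells alone therefore do not show that the lines responded differently.

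Between the drug's change in Empty cells and its change in NeuT cells, which share no library, the correlation over the 37 genes was 0.169, as a description, against 0.808 between the line differences with and without the drug. The changes in Empty cells lay between -0.34 and 0.06 with standard errors up to 0.13. A low correlation of such small changes cannot show that the lines responded differently gene by gene. Of the 37 genes 29 had the lower value in NeuT cells and 8 in Empty cells. This is the same contrast as the interaction and as the line difference with the drug against without it. The counts of 29 given for them are therefore 1 observation. ORC1 was low in both, at -0.34 in Empty and -0.42 in NeuT cells, while POLE was at -0.23 in Empty and -0.05 in NeuT cells.

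The authors' deposited table for Empty cells lists all 37 genes and calls none at an adjusted p under 0.05, against 0.271% of its genes. The authors' deposited table for NeuT cells calls 13 of the 37, all lower, against 2.97% of its genes. The median log2 change of the 37 genes was -0.13 in the authors' deposited table for Empty cells and -0.26 in that for NeuT cells, near the -0.15 and -0.25 of the edgeR fit.

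A further 67 genes of replication and S-phase control, listed by role, were measured beside the 37. In untreated cells 50 of them were called lower in NeuT and 5 higher, with a median of -0.47, where 20.8% of all tested genes were called lower and 21.2% higher. Under JG-98 48 were lower and 5 higher, against 20.0% and 21.7% of all genes. With JG-98 none of them passed the threshold in Empty cells (median -0.09), and in NeuT cells 9 did, all lower (median -0.12), against 1.01% of all genes called lower. The counts per list that follow stand against the same shares. These lists were drawn up with earlier results of the data known.

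Origin firing factors were all lower in untreated NeuT cells (7 of 7, median -0.73), from -0.86 for DBF4, the activator of the CDC7 kinase, to -0.34 for TOPBP1. Other origin genes were lower in 4 of 8 (median -0.32), with MCM9 at -0.94 and ORC2, another origin recognition subunit, at -0.06 without a call. Other fork genes were lower in 14 and higher in 2 of 18 (median -0.43). CHTF18, part of a second clamp loader, was at -1.03 and POLD2, a subunit of polymerase delta, at -0.14, while POLD4 and POLE4, named here after their values were seen, were the 2 that were higher, at 0.58 and 0.29. Chromatin assembly and maintenance genes were lower in 5 of 6 (median -0.63), with UHRF1, which guides maintenance methylation, at -0.94 and ASF1A at -0.08 without a call.

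Other nucleotide genes were lower in 5 and higher in 2 of 8 (median -0.50). SAMHD1, which degrades deoxynucleotides, was at -0.03 without a call. Among E2F and RB genes 8 of 13 were lower and 1 higher (median -0.33). The activators E2F1, E2F2 and E2F3 were at -0.73, -1.20 and -0.19 and the repressors E2F6 and E2F8 at -0.38 and -0.76, all called, whereas E2F5 and E2F7, at -0.18 and -0.23, were not. E2F4, which works mainly in resting cells, was higher in NeuT at 0.29, and RB1 was lower at -0.33. Between the drug-treated lines E2F1, E2F2, E2F5, E2F8 and RB1 were called lower, and E2F3, E2F4, E2F6 and E2F7 were not called.

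Genes of S-phase entry were lower in untreated NeuT in 7 of 7 (median -0.48), from -1.51 for CCNA2, the cyclin of S phase, to -0.26 for CCNE1, with CCNE2 at -0.35. They were also the list with the most calls for the drug in NeuT cells, 6 of 7 with a median of -0.38. CCNE1, CCNE2 and CCNA2 fell by 0.32, 0.44 and 0.32 on the log2 scale, and SKP2, CDC25A and DTL, named here after their values were seen, by 0.63, 0.45 and 0.38. The other 3 calls were UHRF1 at -0.42 and, named after their values were seen, CHAF1A at -0.41 and POLE3 at -0.30.

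**Figure D5:**
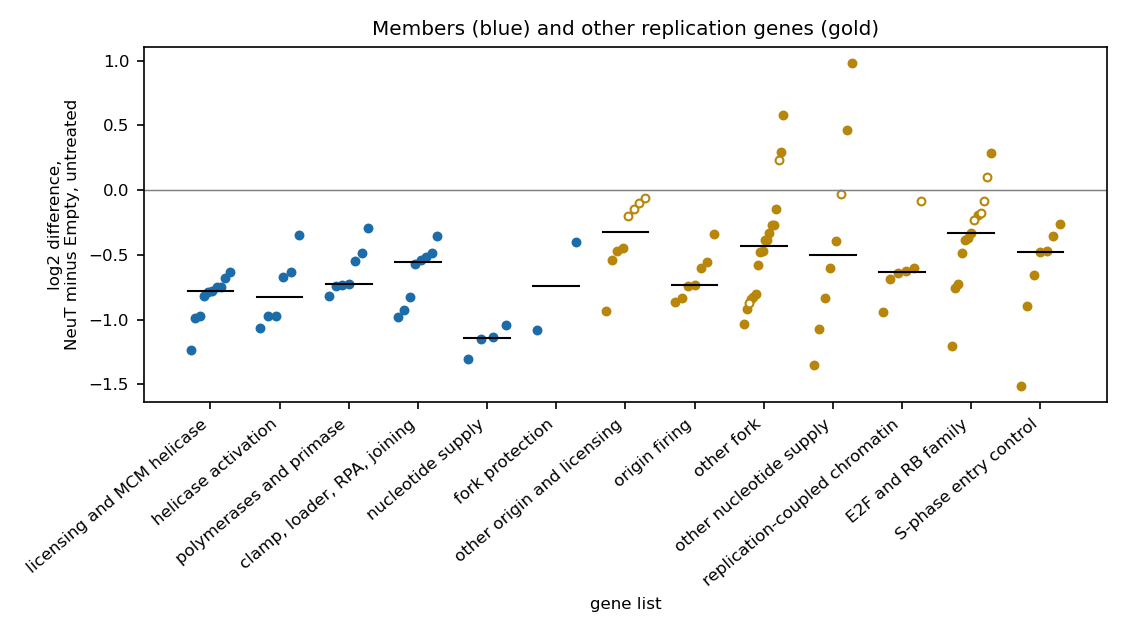
Log2 difference between untreated NeuT and untreated Empty cells, 1 point per gene, for the 37 genes by role (blue) and for the lists of further genes (gold), with filled points for calls, open points for genes not called and a black bar at each median. All blue points are below 0, and the gold medians run from -0.73 for origin firing to -0.32 for other origin genes, with 5 called genes above 0.

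Reads in exons that overlap another gene can be credited to either. Of the 37 genes 21 share no exonic base with another gene and 7 share more than 10%. TYMS shares 47.5% with ENOSF1 and TYMSOS on the opposite strand, MCM2 23.6%, GINS4 23.4%, PRIM1 22.1%, GINS3 10.9% and RFC5 10.6%, beside POLA2 above. For POLA2 and PRIM1 more than 10% is shared on the same strand (36.1% and 16.8%), where counting by strand cannot separate the genes. For the other 5 the overlap is on the opposite strand, and the use of strand in counting is not given in the sources used here. The values of these 7 are less certain than the rest.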

How the data were processed

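RNA sequencing of 8 MCF-10A libraries was analysed from the table of raw counts per gene that the authors deposited, in the layout of featureCounts per the file headers. Per the submitters' processing notes, the tools were Trim Galore 0.5.0, FastQC 0.11.7, HISAT2 2.1.0, SAMtools 1.9, featureCounts 1.6.3 and limma, on hg38 (GRCh38). The release of the annotation, the strand setting and the treatment of reads with several matches are not given in the sources used here. The authors also deposited, per the file headers, 1 table per line with a log2 fold change and mean log2 expression, test scores, and a p-value with its adjusted form. Their numbers are used only where named. Samples were grouped by title, and the number of columns of values matched to no sample was 0.

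The counts were fitted with edgeR 4.0.16 in R 4.3.3: filterByExpr (minimum count 10, total 15), TMM scaling and 1 robust quasi-likelihood model with 1 coefficient per group over all 8 libraries. The Benjamini-Hochberg adjustment ran over all 17693 tested genes. CPM and RPKM were computed from the deposited counts with TMM scaling, the latter with the gene lengths of the count table. The procedure was tested on simulated data with known changes, placed in genes above a minimum mean count. With JG-98 in NeuT cells it recovered 77% of 1.5-fold and 93% of 2-fold changes, 100 of each among 17190 genes, with 10 false calls. In the interaction it recovered 62% and 86%, with 19 false calls. An exact permutation test of 2 against 2 libraries cannot go below p = 0.333 (two-sided), so all tests rest on the spread shared across genes. Replicates of a group differed by more than sampling noise (chi-square per gene 4.52 to 22.1), so each library counts once. The chi-square was 22.1 in treated NeuT cells and 4.52 to 8.20 in the other groups. The simulation gave each gene the same spread in all groups, so its recovery in NeuT cells may not carry over to these data.

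Gene symbols came from a table of names that held 60261 of the 60617 identifiers. Of the 37 genes, the ones given in every library are the one with the largest and the one with the smallest difference between untreated lines in each role, and the 8 with the smallest adjusted p for JG-98 in NeuT cells. RRM2B and TK2, outside this rule, were chosen after their values were seen. In the further lists the genes with the largest and the smallest difference are named, except 1 gene that is not reported here. The members and the further lists were chosen with earlier results of these data known. Alternatives were other scalings, filters, tools (DESeq2 1.42.0, limma-voom 3.58.1), fits to 4 libraries, a replicate block and leaving out each library.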

Additional observations from a re-analysis of the deposited data

How the results depend on the processing

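The difference between lines kept its direction for all 37 genes in all 17 alternative fits, with 36 called in each of them without the drug and 37 under JG-98. Leaving out 1 library at a time gave 36 to 37 calls without the drug (medians -0.77 to -0.74) and 37 in each case under JG-98 (medians -0.96 to -0.83). For JG-98 it gave 0 to 13 calls in Empty cells (medians -0.18 to -0.14), 2 to 28 in NeuT cells (-0.36 to -0.18) and 0 to 7 in the interaction (-0.22 to -0.033). The extremes of 13 and 7 came without the first treated NeuT library. Requiring a log2 change of 1 as well left 7 calls between untreated lines, 11 between treated lines and 0 for JG-98 in NeuT cells. Over all genes it left 1701, 1732 and 65. Total counts in place of TMM gave line medians of -0.82 and -0.97. With no filter on low counts the calls were 10 for JG-98 in Empty cells, 23 in NeuT cells and 1 in the interaction. Over all genes they were 282, 1000 and 138. Fits to 4 libraries gave 8 and 4, and are not defined for the interaction. DESeq2 gave 3 in Empty cells, 19 in NeuT cells (722 over all genes) and 1 in the interaction. Replicate numbers were not taken as a pairing, since the deviations of libraries with one number had correlations between -0.101 and 0.244. With a replicate block the calls were 37, 37, 0, 15 and 0 in the order of the text, and over all genes 7497, 7451, 66, 593 and 1. The sign turned only for values near 0: for JG-98 in Empty cells GINS1 ran from -0.10 to 0.032 (without untreated Empty 1), PRIM2 ran from -0.035 (without treated Empty 1) to 0.15 and POLE2 from -0.035 to 0.0016 (without treated Empty 2), and in NeuT cells POLA1 ran from -0.11 to 0.069 (without untreated NeuT 2) and was 0.00899 without treated NeuT 2, POLE ran from -0.11 to 0.0069 (without untreated NeuT 1) and POLE2 from -0.34 to 0.082 (without treated NeuT 2). The cause was not tested. On simulated data 77% of 1.5-fold changes with JG-98 in NeuT cells were recovered, and smaller ones were not simulated. The larger spread of the treated NeuT libraries was not simulated either.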

Other observations

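Among the 67 further genes, the 5 that were higher in untreated NeuT cells include 2 enzymes that supply deoxynucleotides outside S phase, named here after their values were seen. RRM2B, the small subunit of ribonucleotide reductase that resting cells use in place of RRM2, had 85.8 and 91.5 CPM without and 83.8 and 89.4 CPM with JG-98 in Empty cells, and 175.9 and 174.0 without and 189.5 and 191.1 CPM with it in NeuT cells. Every NeuT library was above every Empty library, the reverse of RRM2, and the log2 difference between untreated lines was 0.98 (SE 0.057, edgeR adjusted p = 5.23e-10). TK2, the mitochondrial thymidine kinase, had 26.6 and 27.1 CPM in the Empty controls and 26.4 and 28.3 in Empty cells under JG-98, then 35.9 and 37.9 in the NeuT controls and 40.1 and 42.3 CPM in NeuT cells under JG-98. It too was higher in every NeuT library, at a log2 difference of 0.46 (SE 0.072, adjusted p = 5.78e-05) where TK1 was at -1.13. The other 3 were POLD4 at 0.58, POLE4 at 0.29 and E2F4 at 0.29.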
